A study of Mus musculus with 3 samples.

Results

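Peaks of REV-ERB alpha and of its paralogue REV-ERB beta in mouse liver were described around 7 genes of hepatic fatty acid synthesis: Srebf1, Insig2, Acly, Acaca, Fasn, Scd1 and Elovl3. A peak was counted at a gene when its centre lay inside a fixed mm9 window around that gene. The 7 windows together covered 696 kb on chromosomes 1, 11 and 19. They held 34 of 24461 REV-ERB alpha peaks and 36 of 22097 REV-ERB beta peaks. Of these, 21 peaks of each list overlapped by at least 1 bp, so the 70 peaks marked 49 distinct sites.

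The liver makes fatty acids from surplus carbohydrate, and this pathway follows a daily rhythm of feeding and fasting. Its main transcriptional activator is SREBP1, encoded by Srebf1, which is made as a membrane-bound precursor and is released by cleavage; INSIG2 keeps the precursor in the endoplasmic reticulum. The enzymes act in sequence: ACLY makes cytosolic acetyl-CoA from citrate, ACACA carboxylates it to malonyl-CoA, FASN builds palmitate, SCD1 introduces a double bond and ELOVL3 lengthens long-chain fatty acids. Both REV-ERB receptors are nuclear receptors that repress transcription in the circadian clock; they bind DNA through a core of AGGTCA and recruit corepressors.

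Chromatin immunoprecipitation followed by sequencing (ChIP-seq) was done on livers of male C57BL/6 mice aged 20 weeks, with no genetic change or drug named in the labels. The mice had been kept for 3 days under 12 hours of light and 12 hours of darkness, and livers were taken at zeitgeber time 8, that is 8 hours after lights on. The study asked where each receptor binds at this time. There was 1 library for REV-ERB alpha, 1 for REV-ERB beta and 1 of input, so the values below carry no error between replicates and the receptors could not be tested against each other; how many animals gave each library is not stated. Each peak is given by its tags, the raw number of sequenced tags in a window of 153 bp for alpha and 210 bp for beta, not scaled to depth. The peaks of all 20 chromosomes of the alpha list held 910669 tags and those of the 19 chromosomes of the beta list 1227074; the beta list as used here holds 0 peaks on chromosome 8, which carries none of the 7 genes. Whole liver was used, so the cell type that gave a peak is unknown, and cross-reaction of the antibodies was not tested.

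All 7 loci held at least 1 peak of each receptor. In tiles of 44 kb, the length of the shortest window, laid over the 19 chromosomes common to both lists, 21.5% had at least 1 alpha peak and 19.9% at least 1 beta peak. Longer windows hold a peak more often: at 313 kb, the length of the Acaca window, the shares were 57.5% and 54.8%. The density in the windows was 48.9 alpha and 51.7 beta peaks per Mb, against 9.50 and 9.11 over the same 19 chromosomes. The windows were placed on genes, whereas the chromosomes include long stretches without any; the density around other genes was not measured. Scd1 was the densest locus, with 132.1 alpha and 113.2 beta peaks per Mb. Acaca was the sparsest for alpha, with 22.4 per Mb, and Elovl3 the sparsest for beta, with 22.7 per Mb from its 1 beta peak.

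**Figure D1:**
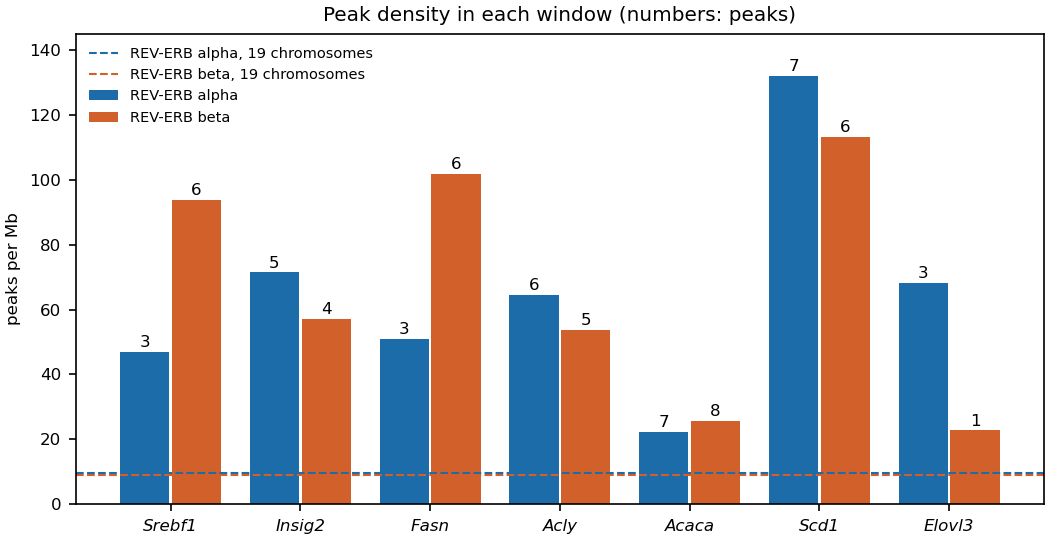
Peaks per Mb in each of the 7 windows (bars, numbers give the peaks counted) for both receptors, with the density over the 19 common chromosomes as dashed lines. All 14 bars stand above the dashed lines at 9.50 and 9.11; Scd1 is highest for both receptors, Acaca is lowest for alpha and Elovl3 for beta.

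The peaks were of ordinary height for their lists. The member peaks had 14 to 133 alpha tags with a median of 30.0, against 27.0 over the whole alpha list, and 18 to 245 beta tags with a median of 46.5, against 39.0 over the whole beta list. The top decile of the alpha list, at 70 tags or more, took in 5 of the 34 alpha members, against 10.2% of the list. That of the beta list, at 111 tags or more, took in 4 of the 36 beta members, against 10.1% of the list. Both shares rest on few peaks. Input tags ranged from 0 to 7 in the alpha windows and from 0 to 10 in the beta windows, with means of 3.24 and 4.14 against 2.66 and 3.59 over the lists.

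Ordered by the strongest peak of each locus, the alpha series was Scd1 with 133 tags, Acaca with 98, Insig2 with 95, Fasn with 87, Srebf1 with 61, Acly with 39 and Elovl3 with 29. The exact Poisson intervals, which are 95% intervals and cover counting error only, overlapped between every pair of neighbours in this order. Repeated tags at a position may make such intervals too narrow. The median number of tags per position was 1.17 over the alpha list and 1.6 over the beta list. For Scd1 the interval was 111.4 to 157.6 and for Acaca 79.6 to 119.4. The beta series began with the same loci, Scd1 with 245 tags, Acaca with 207 and Insig2 with 177, and went on with Acly at 77, Fasn at 75, Srebf1 at 71 and Elovl3 at 27. Its intervals did not overlap at the steps from Insig2 (151.9 to 205.1) to Acly (60.8 to 96.2) and from Srebf1 (55.5 to 89.6) to Elovl3 (17.8 to 39.3). Cut at these steps, the loci fell into 3 beta levels, with Scd1, Acaca and Insig2 at the top and Elovl3 at the bottom. The steps were read from the sorted values themselves. The alpha series had none between neighbours, but some loci further apart in it had intervals without overlap. Scd1 and Fasn (69.7 to 107.3) were such loci, as were Srebf1 (46.7 to 78.4) and Elovl3 (19.4 to 41.65). The steps thus do not set the beta series apart from the alpha series. The strongest peak was the highest of 8 beta peaks at Acaca but of 1 at Elovl3.

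**Figure D2:**
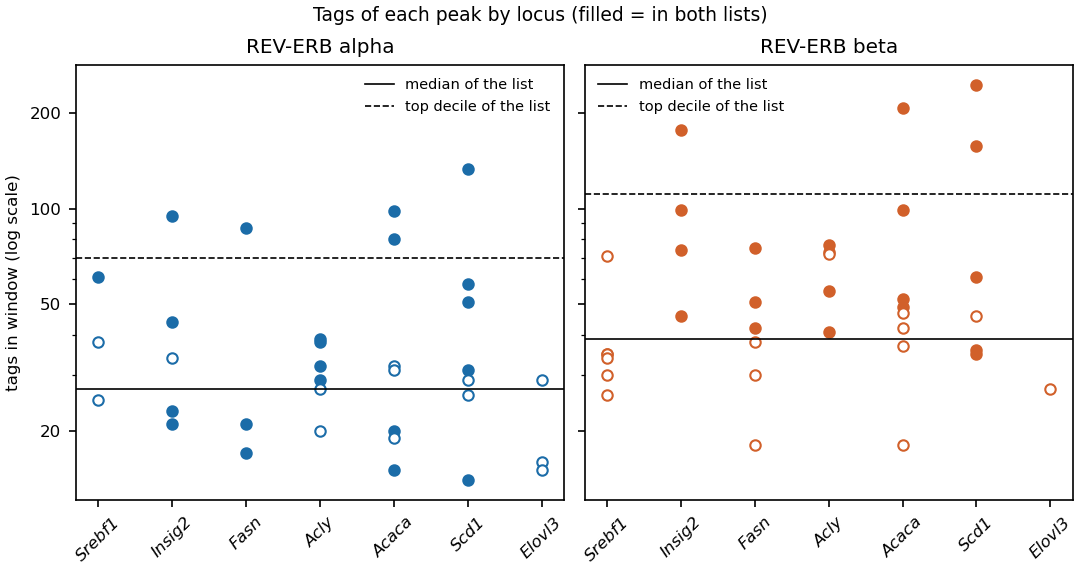
Tags of every member peak by locus, on a log scale, for REV-ERB alpha (left) and REV-ERB beta (right); filled points are peaks found in both lists, open points peaks found in 1 list, and lines mark the median (27.0 and 39.0 tags) and the top decile (70 and 111 tags) of the whole list. The peaks above the dashed lines are all filled and belong to Insig2, Fasn, Acaca and Scd1 for alpha and to Insig2, Acaca and Scd1 for beta.

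Srebf1, the gene of the activator, had 3 alpha peaks and 6 beta peaks in its window (chr11:59992000-60056000), of which only 1 pair overlapped. This pair lay at 60018647 to 60018799 for alpha, with 61 tags, and at 60018659 to 60018869 for beta, with 35 tags, both with 3 input tags. Its alpha peak also stood in the alpha-richest surroundings of all member peaks, with 605 tags in the 10 kb around it, against 356 for beta. The other alpha peaks, at 60010310 to 60010462 with 25 tags and at 60054131 to 60054283 with 38 tags, had their nearest beta centres 7152 bp and 923 bp away. Of the 5 beta peaks without an alpha partner, the highest was at 60038341 to 60038551, with 71 tags over 4 of input, and its nearest alpha centre was 15761 bp away. The remaining 4 held 26 to 35 tags. The highest beta peak of this locus thus overlapped no peak of the alpha list, though alpha tags there were not measured. The highest alpha site held 35 of the 231 tags of the beta peaks here.

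Insig2, whose product restrains the SREBP precursor, had 5 alpha and 4 beta peaks in its window (chr1:123180000-123250000), and all 4 beta peaks overlapped an alpha peak. The strongest pair lay at 123232504 to 123232656 for alpha, with 95 tags and 3 input tags, and at 123232484 to 123232694 for beta, with 177 tags and 4 input tags. It was among the top 4.73% of alpha peaks and the top 3.31% of beta peaks. The next pair stood at the end of the row, at 123245501 to 123245653 with 44 alpha tags and 123245482 to 123245692 with 99 beta tags. The pair at 123224467 to 123224619 held 21 alpha tags, and its beta peak at 123224422 to 123224632 held 74. The pair at 123226159 to 123226311 held 23 alpha tags, with 46 beta tags at 123226148 to 123226358. The alpha peak without a partner, at 123230740 to 123230892, held 34 tags and lay 1773 bp from the nearest beta centre. Every Insig2 site lay beyond the middle of the window, 9.53 to 30.6 kb from its centre on the side of higher coordinates, and the first centre of either list lay 44527 bp from the window start.

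**Figure D3:**
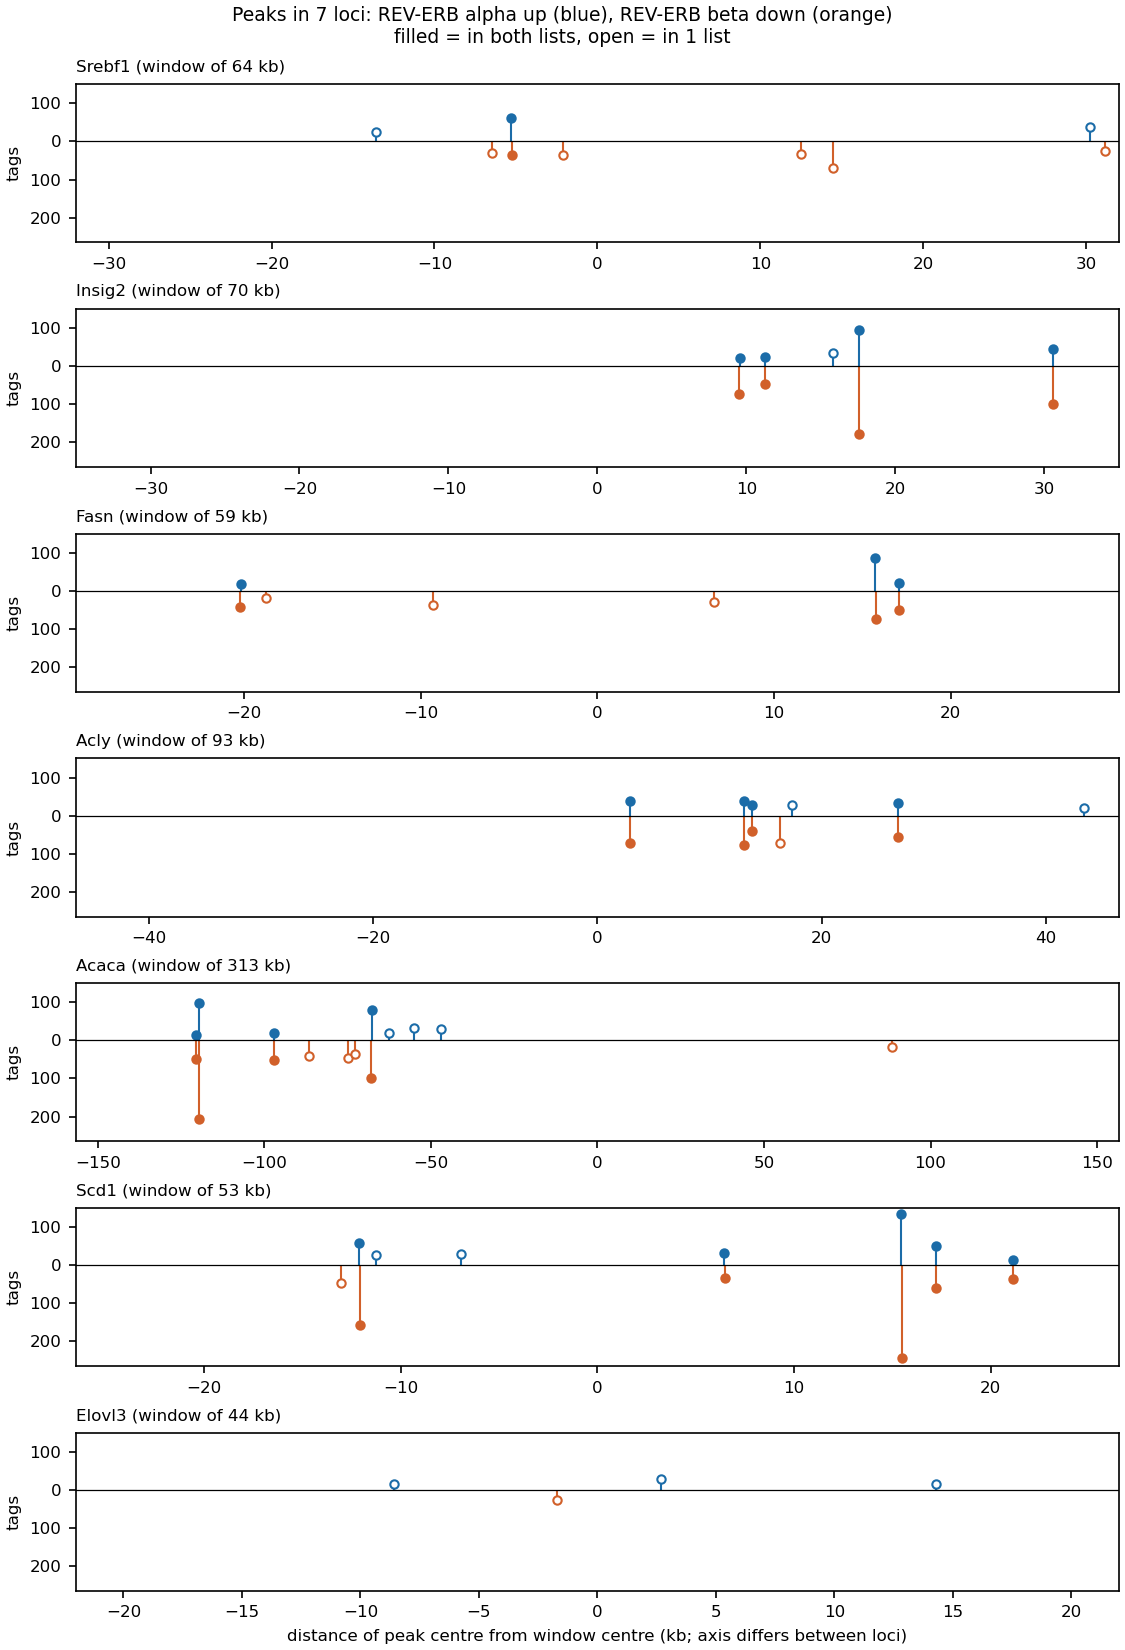
Each panel is 1 locus, with the distance of the peak centre from the window centre in kb on the horizontal axis (scales differ between panels) and tags as stem height, REV-ERB alpha upwards and REV-ERB beta downwards. Filled points are peaks in both lists. Paired stems prevail at Insig2, Acly and Scd1, and unpaired ones at Srebf1 and Elovl3.

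Acly, which supplies acetyl-CoA, had 6 alpha and 5 beta peaks in its window (chr11:100317000-100410000), with 4 shared pairs. The pairs ranged from 29 to 39 alpha tags and from 41 to 77 beta tags. They held 39 alpha and 73 beta tags at 100366374 to 100366526 (beta 100366330 to 100366540) and 38 and 77 tags at 100376541 to 100376693 (beta 100376443 to 100376653). The other pairs held 29 and 41 tags at 100377225 to 100377377 (beta 100377179 to 100377389), and 32 and 55 tags at 100390233 to 100390385 (beta 100390205 to 100390415). The pair at 100376541 had the highest fold over input of all alpha members, with 0 input tags in the alpha window and 1 in the beta window. A beta peak of 72 tags at 100379680 to 100379890 and an alpha peak of 27 tags at 100380758 to 100380910 lay 1049 bp apart and did not overlap. The remaining alpha peak, at 100406840 to 100406992 with 20 tags, was 7389 bp from the nearest beta centre. The Acly sites at 100376541 to 100380910 stood in broad signal: 374 to 437 alpha tags and 474 to 509 beta tags were counted in the 10 kb around each of them.

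The promoter of Acly is shown because it alone among the 9 member promoter entries held the AGGTCA core. RefSeq promoter windows of GRCm38.p6, which run from 250 bases before to 50 bases after a gene start, were available for 5 of the 7 genes in 9 entries: Srebf1, Insig2, Acly, Acaca and Fasn. AGGTCA was searched on both strands; it occurred in 1 of the 9 entries and in 16.3% of all 32851 promoter windows of the same length. The sequence of the 250 bases before the Acly start (GRCm38.p6, minus strand, chr11:100528001-100528250) follows 5′ to 3′, with the match in capitals, 35 to 40 bases before the start.
Acly promoter: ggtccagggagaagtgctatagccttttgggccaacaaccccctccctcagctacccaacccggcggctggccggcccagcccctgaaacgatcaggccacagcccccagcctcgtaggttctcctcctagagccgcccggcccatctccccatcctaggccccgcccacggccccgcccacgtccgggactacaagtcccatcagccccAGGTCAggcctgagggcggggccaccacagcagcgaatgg
The longer forms TAGGTCA (2.61% of all windows) and ANTAGGTCA (0.661%), both of which contain AGGTCA, had 0 matches in the 9 entries, as did DR2, a direct repeat of AGGTCA with a spacer of 2 bases (0.00913%). The sterol response element TCACNCCAC (1.24%), the E-box CACGTG (7.15%) and the D-box TTATGNAA (3.38%) also had 0 matches there. The peaks are on mm9 and the promoters on a later assembly, so which peaks lie on a promoter was not analysed, and a match describes letters and not a bound site.

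Acaca, the carboxylase, had 7 alpha and 8 beta peaks in the longest window (chr11:83923000-84236000, 313 kb), with 4 shared pairs. The strongest pair, at 83959694 to 83959846 with 98 alpha tags and at 83959678 to 83959888 with 207 beta tags, stood 43.5 and 50.5 times above the tag density of the surrounding 10 kb. A weaker pair 904 bp away held 15 alpha tags at 83958790 to 83958942 and 49 beta tags at 83958784 to 83958994, with 0 input tags in both windows. The pair at 84011630 to 84011782 (beta 84011544 to 84011754) held 80 alpha and 99 beta tags, and that at 83982441 to 83982593 (beta 83982452 to 83982662) held 20 and 52. Before the pair at 84011630 came single-list beta peaks at 83992764 to 83992974, 84004500 to 84004710 and 84006740 to 84006950. They held 42, 47 and 37 tags. After the pair came 3 single-list alpha peaks at 84016877 to 84017029, 84024476 to 84024628 and 84032590 to 84032742, with 19, 32 and 31 tags. The surroundings of these 3 alpha peaks were poor in tags, with 82, 114 and 107 alpha tags in 10 kb against a median of 203 in the list. Beyond them a gap of 135.4 kb held no peak of either list. It was followed by 1 more single-list beta peak, of 18 tags, at 84167949 to 84168159.

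Fasn, the synthase itself, had 3 alpha and 6 beta peaks in its window (chr11:120647000-120706000), and all 3 alpha peaks overlapped a beta peak. The strongest pair lay at 120692115 to 120692267 for alpha, with 87 tags and 2 input tags, and at 120692168 to 120692378 for beta, with 75 tags and 6 input tags. It was among the top 6.08% of the alpha list but only the top 20.8% of the beta list, and its centres were 82 bp apart, the widest of the 21 pairs. Its neighbour 1348 bp away held 21 alpha tags at 120693463 to 120693615 and 51 beta tags at 120693481 to 120693691. The pair on the other side of the window held 17 alpha tags at 120656261 to 120656413 and 42 beta tags at 120656178 to 120656388. The highest of the 3 beta peaks without a partner, at 120667074 to 120667284, held 38 tags, and the others held 18 and 30.

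Scd1, the desaturase, had 7 alpha and 6 beta peaks in its window (chr19:44449000-44502000), with 5 shared pairs, the most of any locus. The pair at 44490849 to 44491001 for alpha, with 133 tags, and 44490866 to 44491076 for beta, with 245 tags, was the strongest of all 7 loci in both lists. Its rank was 392 by alpha tags and 249 by beta tags, with 6 input tags in each window. The pair at 44492638 to 44492790 (beta 44492614 to 44492824), with 51 alpha and 61 beta tags, and that at 44496566 to 44496718 (beta 44496536 to 44496746), with 14 and 36 tags, followed on the same side. The pair at 44463318 to 44463470 held 58 alpha tags, with 157 beta tags at 44463340 to 44463550, which placed it in the top 15.5% and the top 4.59% of the lists. The pair at 44481867 to 44482019 (beta 44481902 to 44482112) held 31 and 35 tags. Next to the pair at 44463318, an alpha peak of 26 tags at 44464153 to 44464305 and a beta peak of 46 tags at 44462364 to 44462574 lay on opposite sides, 784 bp and 925 bp from the nearest centre of the other list. A further alpha peak at 44468494 to 44468646 held 29 tags. Scd1 was thus the densest locus and the one with the highest site.

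Elovl3, the elongase, was the only one of the 7 loci without a shared pair. Its window (chr19:46186000-46230000) held 3 alpha peaks, at 46199337 to 46199489 with 16 tags, at 46210626 to 46210778 with 29 tags and at 46222201 to 46222353 with 15 tags. The single beta peak lay at 46206187 to 46206397, with 27 tags over 6 of input, 4410 bp from the nearest alpha centre. The alpha peaks of 15 and 16 tags were low, with 96.7% and 92.5% of all alpha peaks holding at least as many tags, as was the beta peak, with 72.5% of all beta peaks; the alpha peak of 29 tags stood just above the median of its list. Their surroundings differed: the alpha peak of 29 tags had 452 alpha tags in its 10 kb, a level that 6.70% of the list reached, whereas the peak of 16 tags had 34, so few that 99.9% of the list had at least as many.

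Across the 7 loci, with all peaks of the lists, the lists overlapped to about the same degree as elsewhere. Under other settings, given in the last section, members overlapped more or less than the lists. The 21 shared peaks were 61.8% of the alpha members (Wilson 95% interval 45.04% to 76.1%) and 58.3% of the beta members (42.2% to 72.9%), against 57.8% of all alpha peaks outside chromosome 8 and 60.3% of all beta peaks. Both background shares lay inside these intervals, which treat neighbouring peaks as independent. By locus, the shared peaks made up 1 of 3 alpha and 1 of 6 beta peaks at Srebf1, 4 of 5 and 4 of 4 at Insig2, 4 of 6 and 4 of 5 at Acly, 4 of 7 and 4 of 8 at Acaca, 3 of 3 and 3 of 6 at Fasn, 5 of 7 and 5 of 6 at Scd1, and 0 of 3 and 0 of 1 at Elovl3. These counts are too small to order the loci. Shared members had a median of 38 alpha and 61.0 beta tags, and members found in 1 list 27.0 and 35.0. The whole lists had the same order, with 35 and 52 at shared peaks. Their peaks found in 1 list, outside chromosome 8, had 20 and 27. Member peaks found in 1 list are absent from the other list and not shown to be unoccupied, since the tags of the other receptor at those places were not measured. The centres of the 21 pairs lay 1 to 82 bp apart, with a median of 23 bp against 28 bp over all 13314 shared peaks.

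At shared peaks of these loci, the median ratio of alpha to beta tags lay below that of all shared peaks. Alpha tags themselves were not low: their median was 38 against 35 over all shared peaks, and that of beta was 61 against 52. The ratio of alpha to beta tags ranged from 0.284 to 1.74, with a median of 0.5, against 0.688 over all shared peaks. Set against that overall median, the member median was -0.46 on the log2 scale, and 15 of the 21 pairs lay below it and 6 above. With tags at unique positions it was -0.26, and 15 pairs still lay below the median. With tag density over the surrounding 10 kb it was -0.30, and 14 pairs lay below. The ratio compares these 2 libraries, and pairs of 1 locus are not independent of each other.

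**Figure D4:**
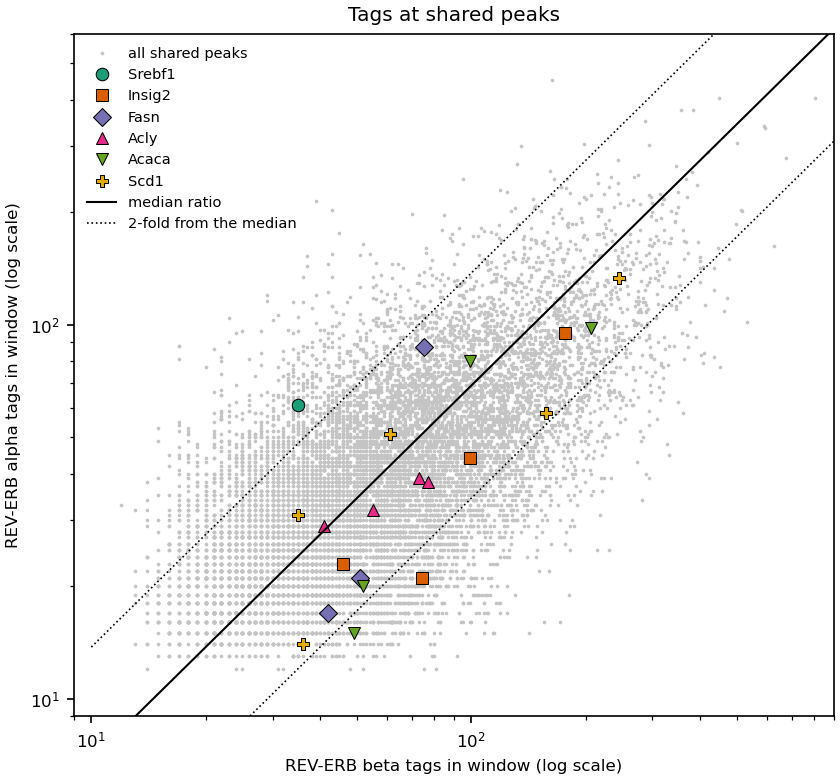
REV-ERB alpha tags against REV-ERB beta tags, both on log scales, for all 13314 shared peaks (grey) and the 21 pairs of the loci (coloured symbols); the solid line is the median ratio of 0.688 and the dotted lines lie 2-fold from it. Most coloured symbols sit below the solid line, with 1 above the upper dotted line and 2 below the lower one.

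Of the 21 pairs, 18 lay within 2-fold of the overall median. The Srebf1 pair at 60018647 was the 1 pair at least 2-fold toward alpha, against 8.4% of all shared peaks. The Insig2 pair at 123224467 and the Acaca pair at 83958790 were the 2 at least 2-fold toward beta, against 9.71%. The members' counts are close to these background shares. The log2 ratio over the median was 1.34 for the Srebf1 pair (exact 95% interval 0.72 to 1.98), -1.28 for the Insig2 pair (-2.05 to -0.56) and -1.17 for the Acaca pair (-2.11 to -0.31). Intervals of 9 of the 21 pairs excluded the overall median, against 39.4% of all shared peaks, a similar share; they cover counting error only, and repeated tags at a position may make them too narrow. The other 6 were the strongest Fasn pair (0.75, from 0.29 to 1.22), the Insig2 pair at 123245501 (-0.63), the Acaca pairs at 83959694 (-0.54) and 83982441 (-0.84), and the Scd1 pairs at 44463318 (-0.90) and 44490849 (-0.34). Of 31 comparisons between 2 pairs of the same locus, the intervals of 5 did not overlap. These were 2 at Fasn, 1 at Acaca and 2 at Scd1, with 0 of 6 at Insig2 and 0 of 6 at Acly. Overlap of 2 intervals does not show equal ratios, and pairs with few tags have wide intervals. The share for neighbouring shared peaks elsewhere was not measured, so these counts do not set the loci apart. Among the 5 comparisons without overlap was that of the Fasn pairs 1348 bp apart, chosen after its values were seen. Their log2 ratios were 0.75 and -0.74, with intervals of 0.29 to 1.22 and -1.55 to 0.02.

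**Figure D5:**
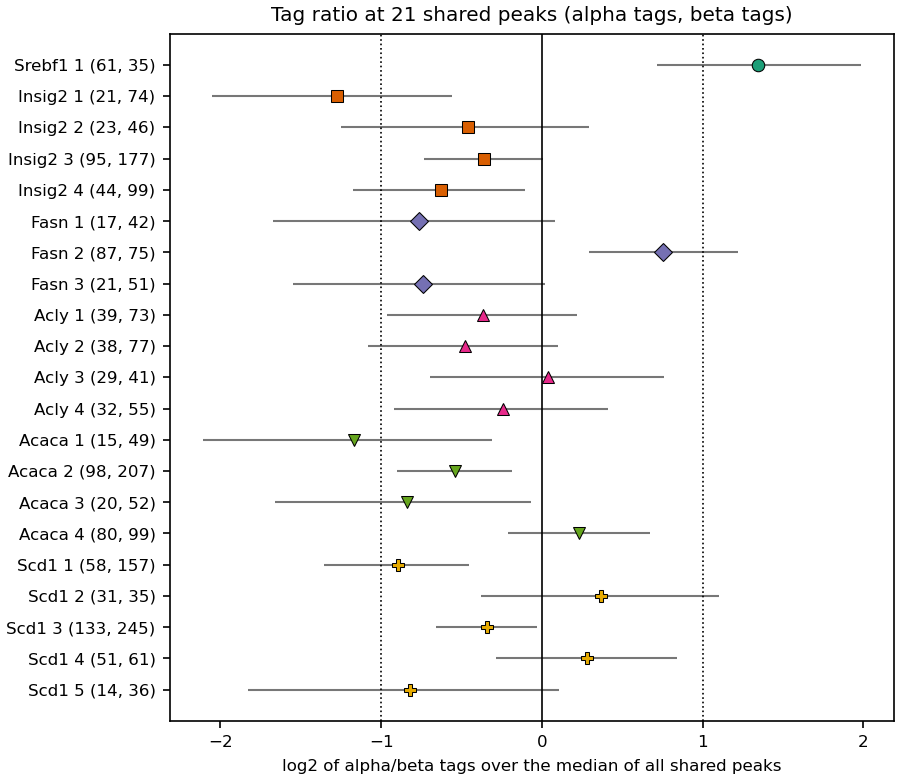
Log2 of alpha over beta tags, relative to the median of all shared peaks, for the 21 pairs, numbered along each locus by increasing coordinate, with alpha and beta tags in brackets; bars are exact 95% intervals of the counts and dotted lines mark 2-fold. The Srebf1 pair lies at 1.34 and the lowest pair, at Insig2, at -1.28.

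Which pairs passed 2-fold depended on the measure. The Srebf1 pair stood at 1.02 with unique positions and 0.99 with tags over input, but at 0.62 with density over its surroundings, where the alpha library was rich in tags. The first Insig2 pair stood at -1.12 with unique positions and -0.82 with density over its surroundings. Over input it stood at -0.39, where the beta window held 8 input tags and the alpha window 3. The Acaca pair at 83958790 stood at -0.96 with unique positions, -1.44 with tags over input and -0.47 with density over its surroundings. All 3 kept their sign under each of these measures.

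The 10 kb around most beta members held more beta tags than is typical of the list. Of the 36 beta members, 32 had more beta tags in the surrounding 10 kb than the median of the list, 198, against 49.8% of the list; the member median was 323. For alpha it was 23 of 34 members, with a median of 237 against 203. These counts take in the tags of the peak itself and of neighbouring peaks, and the windows held more peaks per Mb than the chromosomes. The counts are thus not separate from the peak density given above. Peaks closer than 10 kb share part of these tags, so such peaks are not separate measurements. The peaks rose less above their surroundings than the typical peak, with a median density ratio of 8.62 against 11 for alpha and 9.22 against 12.3 for beta. Here too the surroundings include neighbouring peaks.

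Part of the members lay close to a window edge: the smallest distances to an edge were 870 bp for a beta peak and 1793 bp for an alpha peak, both at Srebf1. Windows 10 kb shorter at each side kept 27 of the 34 alpha and 31 of the 36 beta peaks, and windows 10 kb longer held 35 and 38. The nearest peak centres outside the windows lay 4305 bp to 241372 bp from an edge, with a median over the 28 edges of 41939.5 bp, and held 16 to 350 tags. The peaks just inside held 14 to 99 tags. The 350 tags belong to an alpha peak at 100454120 to 100454272, 44196 bp beyond the Acly window and higher than any member. In the order of protein-coding genes in RefSeq (GRCm38.p6), the neighbours of the loci are Rai1 and Tom1l2 for Srebf1, En1 and Ccdc93 for Insig2, Klhl11 and Ttc25 for Acly, Tada2a and Gm11437 for Acaca, Dus1l and Ccdc57 for Fasn, Scd4 and Wnt8b for Scd1, and Nolc1 and Pitx3 for Elovl3. Where these genes or the 7 genes themselves begin and end on mm9 was not analysed here, so a peak in a window is not assigned to the gene that names it.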

How the data were processed

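Per the submitters' processing notes, Bowtie (a read aligner) and HOMER (a peak caller) were used with mm9; for versions, filters and library totals the sources used here give nothing. Per the labels, chromatin was fixed for 30 minutes in 2 mM disuccinimidyl glutarate and then for 10 minutes in 1% formaldehyde. The authors deposited 1 peak list per antibody with raw tag counts. The deposited peak score, a whole number, was at least 14 (alpha) or 12 (beta), and the deposited FDR, a p-value-like measure, is 0 throughout and was not used. Without library totals, tag counts of the lists were compared only relative to the median ratio of all shared peaks. Raw tags per peak set the precision through exact intervals.

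Peaks were taken by centre within the windows. Windows overlapping by at least 1 bp were shared. Fold over input was tags plus 1 over input tags plus 1. Named are all shared pairs, the highest peak of each list in each locus, and all peaks where a locus has at most 4 in a list; some further peaks were named after their values were seen. Tiles start at the first peak of a chromosome. Alternatives were other overlap rules, thresholds, window edges and measures of height. Members, lists and motifs were chosen with earlier results of these data known. With mm9 annotation not used here, other genes of the pathway were not located. The overlap matching and the 2-fold rule were tried on simulated data. Only changes toward alpha and larger than 2-fold were simulated, and no limit was set on calls at unchanged sites. The trial therefore does not show how reliable the calls at single pairs are. Software was Python 3.11.15 with scipy 1.17.1, pandas 2.3.3 and numpy 2.4.6.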

Additional observations from a re-analysis of the deposited data

How the results depend on the processing

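With 1 library per antibody, no library could be left out, and no paired analysis was possible because no group has a second replicate. The 34 alpha and 36 beta members numbered 21 and 23 in the top 50% of each list by tags, of which 12 were shared. This setting keeps fewer peaks by construction. The shared share was 57.1% of alpha and 52.2% of beta members, against 61.7% (outside chromosome 8) and 65.6% of the lists. With tags at least 8 times input it was 73.9% and 60.7%, against 55.5% and 57.7%. Whether members overlapped more or less than the lists thus depended on the setting. Under the other thresholds, window edges and overlap rules, alpha members numbered 23 to 35, beta members 28 to 38 and shared pairs 17 to 22 (the window edges were added for shared pairs after seeing the data), within 1.5 times of the main counts. The median log2 ratio of -0.46 was -0.26 with unique positions, -0.30 with density over the surrounding 10 kb, -0.33 with the centre taken from autosomal shared peaks above the median height, and -0.56 with tags over input. Pairs at least 2-fold toward beta numbered 1 with unique positions (the Insig2 pair) and 4 with tags over input (the Acaca pair at 83958790, 2 Fasn pairs and 1 Scd1 pair). With density they numbered 2, the Fasn pairs at 120656261 (-1.09) and 120693463 (-1.23), neither of which passed 2-fold with all tags; the cause was not tested. The pair toward alpha numbered 1 in every measure, but it was the Srebf1 pair only with all tags (either centre) and unique positions; with tags over input it was the strongest Fasn pair (1.64), and with density the Acaca pair at 84011630 (1.02). For these other measures, the share of all shared peaks at least 2-fold from the median was not computed. The member counts under them therefore have no background and are not read as a change in the members. Peaks of 14 to 30 tags rest on few counts, and library totals were not used here.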
